A study of Homo sapiens with 6 samples.

Results

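In the esophageal adenocarcinoma cell line Eso26, some 1 Mb stretches of the genome carried far more PPARG peaks than others, and the weak peaks there that had no counterpart in a second line, OE33, are described here. Each of chr1-22 and chrX was cut into 1 Mb windows, peaks were placed by their summit, and windows holding 12 or more Eso26 peaks were called densely peaked. Members were the Eso26 peaks in those windows with a fold enrichment (signal at the summit over the caller's background) under 10 and without 1 bp of overlap with an OE33 peak. This gave 859 members in 73 windows, out of 6935 Eso26 peaks on these chromosomes and 7010 in the whole list. The peak counts and fold enrichments of Eso26 and the overlap with OE33 chose the members, so those values are given as description without a test.

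PPARG is a nuclear receptor that binds DNA as a pair with a retinoid X receptor, mostly in introns and between genes, and it is best known for switching on genes of lipid uptake, storage and synthesis. In chromatin immunoprecipitation followed by sequencing (ChIP-seq), a peak marks a place where DNA fragments pulled down with the antibody pile up. As background, human genes are unevenly spread: chr19 is the most gene-dense and among the most GC-rich chromosomes, and the ends of many chromosome arms are rich in genes.

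The study holds 6 samples in 6 groups of 1: a PPARG ChIP-seq sample of Eso26 and of OE33, and RNA-seq of each line after a non-silencing siRNA (control) or an siRNA against PPARG (siPPARG), delivered with Lipofectamine RNAiMAX. Both are established esophageal adenocarcinoma lines. The medium was RPMI-1640 for Eso26 and DMEM for OE33, each with fetal bovine serum, so line and medium cannot be told apart. The ChIP-seq titles name no siRNA, and the labels give no time after transfection. Triplicate sequencing is mentioned for the knockdown, yet there is 1 peak list per line and 1 RNA column per group, so no difference between the lines or between sets of peaks has a replicate check, and no p-value is given. Neighbouring peaks of 1 library are not independent, and every interval below is a 95% counting interval only.

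RNA from the control cultures carried epithelial markers. All 10 epithelial markers examined, among them EPCAM and KRT8, were at 5 CPM (counts scaled to library size) or more in the Eso26 control, with a summed level of 5949 CPM against 10131 CPM in the OE33 control. Of 10 markers each, the mesenchymal list had 1 at that level in Eso26 (COL1A1), the immune list 1 (LYZ) and the fat cell list 0, with summed levels of 7.82, 25.7 and 1.91 CPM and 4, 6 and 6 markers at 0. RNA-seq totals ran from 16866996 to 23019840 counts.

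The 859 members crowded onto few chromosomes, with chr19 far ahead. Chr19 held 259 of them, chr17 111, chr16 91 and chr22 81. Together these 4 chromosomes had 542 members, or 63.1%, on 9.29% of the spanned bases (each chromosome's span was taken as its largest peak end). Of 3665 Eso26 peaks that met the same limits on fold and overlap but lay in the other windows, 13.1% were on these 4 chromosomes. Chr19 alone had 30.2% of the members (interval 27.2 to 33.3) and 2.86% of those other weak peaks (interval 2.37 to 3.46). Part of this contrast is built in, since the rule takes the crowded windows out of the second group. Of all 6935 Eso26 peaks, 7.95% were on chr19, 6.17% on chr17, 5.02% on chr16 and 3.76% on chr22.

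Per Mb, chr19 carried 4.38 members, chr22 1.58, chr17 1.37 and chr16 1.01, and chr11 followed with 0.45. The remaining chromosomes with members ran from 0.03 per Mb on chr2 to 0.40 on chr20. Members were found on 17 chromosomes, and chr3, chr6, chr13, chr15, chr18 and chr21 had 0. Absence of members did not mean absence of peaks: chr3 had 331 Eso26 peaks and chr6 had 316, spread so that no window reached 12.

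**Figure D1:**
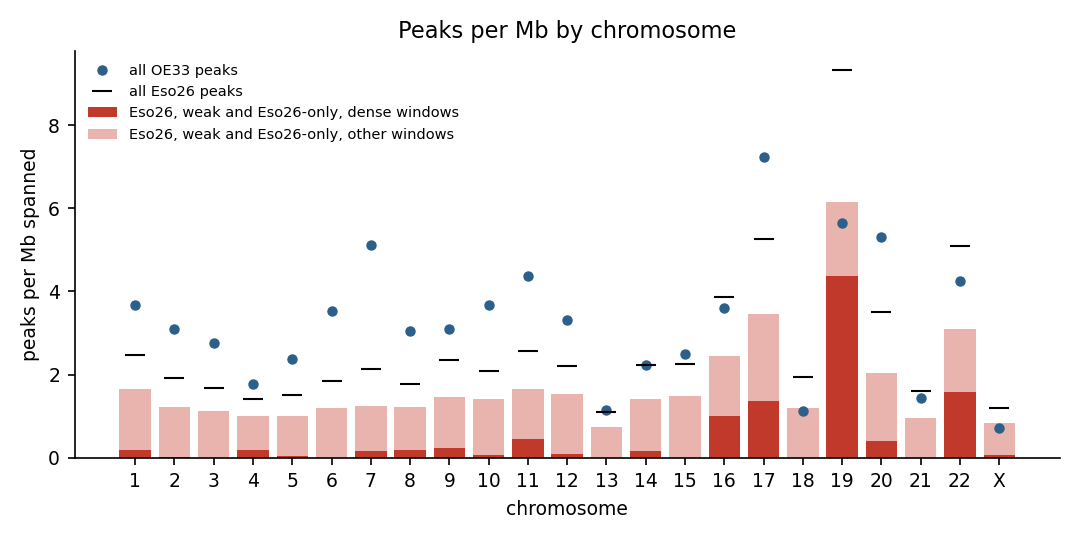
Bars give weak Eso26-only peaks per Mb spanned on each chromosome, split into those in densely peaked windows (dark, the members) and in the other windows (pale); black dashes give all Eso26 peaks and blue points all OE33 peaks per Mb. Chr19 stands out with 4.38 members per Mb and 9.32 Eso26 peaks per Mb in all, against 5.65 OE33 peaks per Mb.

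The single most crowded window lay near the start of chr19. The window chr19:1000001-2000000 (hg19 coordinates, as for all positions here) held 51 Eso26 peaks, of which 33 were members, 3.84% of all members. Its members lay across 974 kb, with a median fold enrichment of 7.38 and a highest of 9.39. The windows on either side of it belonged to the same run: the first 6 Mb of chr19 formed 6 adjacent densely peaked windows with 159 Eso26 peaks and 106 members.

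The next windows by number of members lay on several chromosomes. The windows chr9:139000001-140000000 and chr17:79000001-80000000 held 23 members each, among 30 and 28 Eso26 peaks. At the start of chr16, chr16:1-1000000 held 22 members and chr16:1000001-2000000 held 18, among 33 and 23 peaks. With 17 members each came chr1:6000001-7000000, chr16:67000001-68000000 and chr19:3000001-4000000. With 16 each came chr11:1-1000000 and chr19:1-1000000, a number also reached by chr20:62000001-63000000. The first 10 windows in this order held 202 members, or 23.5%, so most members were spread over the other 63 windows.

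Each of the 73 windows had at least 2 members, and the median was 11. The window with 2, chr22:38000001-39000000, held 14 Eso26 peaks, but 7 of these were at or above the fold limit and 6 overlapped an OE33 peak. Of the 73 windows, 37 stood next to another one and formed 13 runs, which together held 486 members. The next longest run had 4 windows, at chr11:64000001-68000000, with 44 members. Runs of 3 windows were chr16:1-3000000 with 52 members, chr19:17000001-20000000 with 35, chr22:19000001-22000000 with 34, chr19:46000001-49000000 with 30 and chr19:13000001-16000000 with 29.

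Within the windows, members sat near other Eso26 peaks at a range of scales. The median distance from a member's summit to the nearest other Eso26 summit was 11955 bases, and 45.5% had one within 10 kb. In the other windows, the weak Eso26-only peaks had a median distance of 85771 bases; a shorter distance follows from choosing crowded windows. Joining members whose summits were up to 10 kb apart left 548 alone and 311 in 132 small groups of at most 5. The groups of 5 were at chr11:65352444-65375041, chr17:79860010-79895388, chr19:917312-935140 and chr19:1445413-1467397. The tightest group of 4 was chr19:56125091-56127407, which spanned 2.32 kb with fold enrichments from 6.04 to 8.05. Most members thus had no other member within 10 kb, and the groups that formed were small.

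Members, like the other Eso26 peaks of their windows, lay much closer to chromosome ends than weak Eso26-only peaks in other windows. Within 10 Mb of an end were 558 of 859 members, or 65.0% (interval 61.7 to 68.1), and 22.1% (interval 20.8 to 23.5) of the 3665 weak Eso26-only peaks in other windows. All 1291 Eso26 peaks in the densely peaked windows, strong and shared ones included, had a share of 64.1% (interval 61.4 to 66.6). Nearness to ends thus belonged to the windows and was not particular to the members. The zones within 10 Mb of an end make up 15.2% of the spanned bases. Ends were the first base and the largest peak end of each chromosome, and stretches without sequence were not taken out. The median member was 4.13 Mb from an end, and the median of the other weak peaks 28.1 Mb. Both kinds of end contributed, with 305 members in the first 10 Mb of a chromosome and 253 in the last.

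The share near ends was also higher at matched chromosomes and without chr19. On chr19, a short chromosome, 33.8% of the span lies within 10 Mb of an end. With the other weak peaks reweighted to the members' chromosomes, 30.7% of them were within 10 Mb of an end. Without chr19, 419 of 600 members (69.8%, interval 66.0 to 73.4) and 21.5% of the other weak peaks were. On 10 of the 17 chromosomes with members every member was within 10 Mb of an end, among them chr9 with 35, chr4 with 34, chr8 with 28 and chr7 and chr20 with 25 each. On chr12 none of 12 was.

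Even so, 301 members lay farther than 10 Mb from any end, 120 of them on chr19 and 181 on other chromosomes. Among runs wholly in the interior, chr11:64000001-68000000 held the most members, 44. The single interior windows with most members were chr16:67000001-68000000 with 17 and chr19:18000001-19000000 with 15. With 14 each came chr11:65000001-66000000, chr11:66000001-67000000, chr17:42000001-43000000 and chr22:20000001-21000000. Position near an end thus described 43 of the 73 windows by their centres, and not the other 30.

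**Figure D2:**
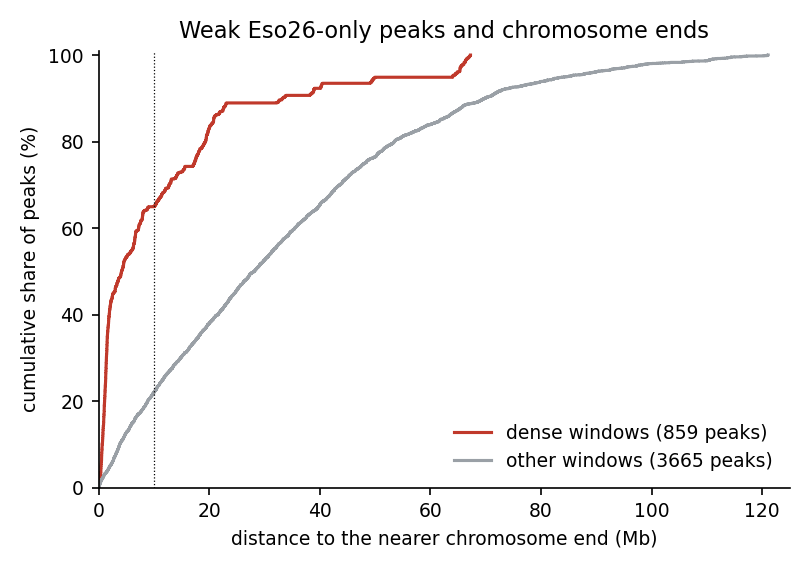
Cumulative share of weak Eso26-only peaks (vertical, in percent) against distance to the nearer chromosome end (horizontal, in Mb), for the 859 members (red) and 3665 peaks in other windows (grey); the dotted line marks 10 Mb. At that line the red curve is at 65.0% and the grey one at 22.1%.

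OE33 also had more peaks in these windows than elsewhere, though fewer than Eso26. The median was 9 OE33 peaks per densely peaked window (interval of the median 8 to 13, range 1 to 39), against 2 in the 2253 other windows with a peak of either line. The 73 windows held 893 of 9496 OE33 peaks, or 9.40% (interval 8.83 to 10.0), and 1291 of 6935 Eso26 peaks, or 18.6%. Because the windows were chosen on Eso26, a larger Eso26 number is built in: Eso26 had more peaks in 59 windows, OE33 in 11, and 3 were equal. No densely peaked window was empty in OE33.

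The windows crowded in OE33 were partly the same and partly other ones. Of the 2326 windows with a peak in either line, 151 held 12 or more OE33 peaks. Of the 73 Eso26 windows 33 did, which is 45.2% of them and 21.9% of the 151. At chr11:65000001-66000000, OE33 had 39 peaks and Eso26 20, and at chr17:73000001-74000000 OE33 had 35 and Eso26 14. In the other direction, chr4:1-1000000 had 1 OE33 peak and 12 Eso26 peaks, and chr19:5000001-6000000 and chr19:10000001-11000000 had 2 OE33 peaks each beside 14 and 13. Across the 2326 windows with a peak in either line, Pearson's r of the 2 peak numbers was 0.45 and Spearman's rho 0.38. The 2 numbers of a window come from the same stretch of sequence, and all windows come from 1 library pair. The relation is a description without a test. Near chromosome ends OE33 was less concentrated as a whole: 19.8% of OE33 peaks (interval 19.03 to 20.63) and 30.2% of Eso26 peaks (interval 29.10 to 31.26) were within 10 Mb of an end.

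**Figure D3:**
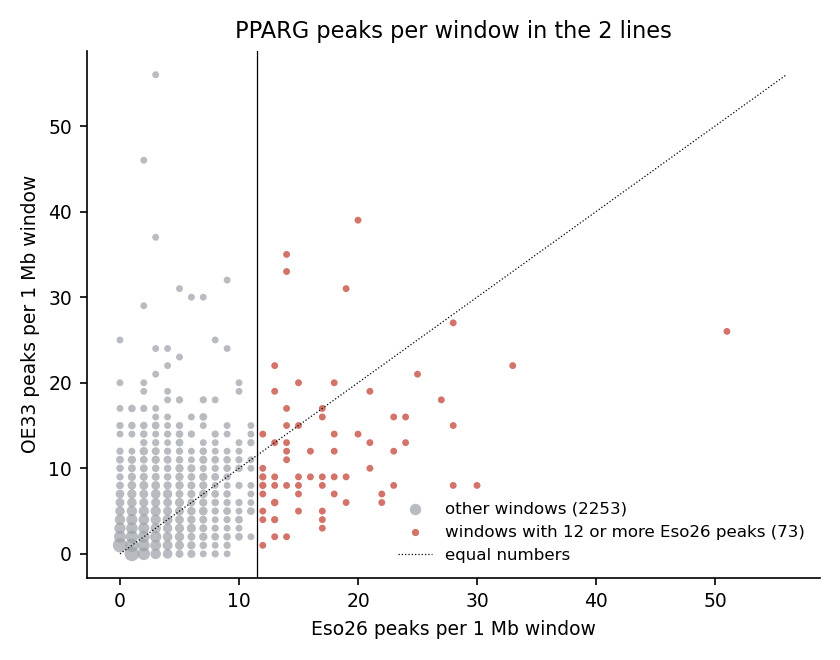
Each point is a pair of peak numbers per 1 Mb window, Eso26 (horizontal) against OE33 (vertical), with larger points for pairs seen in more windows; red marks the 73 windows with 12 or more Eso26 peaks, the vertical line the limit and the dotted line equal numbers. The red windows range from 1 to 39 OE33 peaks, and the farthest to the right is the chr19 window with 51 Eso26 and 26 OE33 peaks.

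Crowded windows and other windows were close in their shares of weak and strong peaks but differed in the position of peaks near ends. Shared peaks made up a somewhat smaller part of the peaks in crowded windows. At the lowest expected background were 35.4% of members and 21.99% of other weak peaks, the latter 35.5% once reweighted to the members' chromosomes. Before members were chosen, 205 of 1291 Eso26 peaks in densely peaked windows overlapped an OE33 peak, or 15.9% (interval 14.0 to 18.0), against 18.7% (interval 17.7 to 19.8) of 5644 in other windows. Reweighted to the chromosomes of the densely peaked windows, the latter share was 16.9%, inside the interval of the former. When at least 50% of the Eso26 peak had to be overlapped, 134 of 1291 (10.4%, interval 8.83 to 12.16) were shared in densely peaked windows. In other windows 735 of 5644 were (13.02%, interval 12.17 to 13.9). These intervals did not overlap, and shares by this stricter definition were not reweighted by chromosome. Weak Eso26-only peaks made up 66.5% (interval 63.9 to 69.1) of the peaks in densely peaked windows and 64.9% (interval 63.7 to 66.2) of those in other windows. Peaks with a fold enrichment of 10 or more made up 23.2% (interval 21.0 to 25.6) and 21.4% (interval 20.4 to 22.5).

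Seen from OE33, 207 of its 893 peaks in these windows overlapped an Eso26 peak, or 23.2% (interval 20.5 to 26.1), against 12.3% (interval 11.65 to 13.04) of its 8603 peaks in other windows. The windows were chosen for many Eso26 peaks, and whether that bears on this share was not tested. Seen from Eso26, the share was not higher in these windows (15.9% against 18.7%). Of the 73 windows, 10 had no shared peak, among them chr19:4000001-5000000 with 18 Eso26 peaks and chr17:42000001-43000000 with 15. The members, which by choice overlap no OE33 peak, had their nearest OE33 summit at a median of 33275 bases, and 48 of 859 (5.59%, interval 4.24 to 7.33) had one within 1 kb. For the weak Eso26-only peaks in other windows the median was 97672 bases, with 4.50% (interval 3.88 to 5.22) within 1 kb. Members thus had OE33 peaks in their wider surroundings more often, while the shares within 1 kb had overlapping intervals.

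The members rested on few sequenced fragments. For each peak, the fold enrichment and the p-value together gave the number of fragments covering the summit and the background the caller expected there, as set out under the processing. Members had a median of 10 fragments at the summit (range 6 to 36), where the exact Poisson interval of a count of 10 is 4.80 to 18.4. The median expected background was 0.63 fragments. Only 2 members had 20 or more fragments and 3 a background over 2. The fold limit of 10 caps the fragments at a given background, so few fragments partly follow from the rule. All 1291 Eso26 peaks in densely peaked windows had a median of 12 fragments, as had all 5644 in other windows. Weak Eso26-only peaks in other windows had a median of 11 fragments (range 6 to 65) over a median background of 0.63.

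The limit at 10 fixes the upper side of the members' fold enrichment. Fold enrichment ran from 4.05 to 9.87 with a median of 6.75, and the −log10 q from 2.41 to 14.0 with a median of 6.46. Members were 200 to 1254 bases long, with a median of 320. With so few fragments the values came in steps, with 251 distinct fold enrichments among 859 members and 66 members at exactly 6.71. The weak peaks in other windows had a median fold enrichment of 6.83 and a median length of 329 bases.

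The strongest members came from 7 chromosomes. The highest fold enrichment, 9.87, belonged to chr14:105940683-105941321, with 15 fragments at the summit over an expected 0.62. Next were chr16:1967964-1968488 at 9.85 and, all at 9.82, chr11:842641-843178, chr19:4402560-4402887 and chr22:19746808-19747188. The longest member, chr17:79918424-79919677 with 1254 bases, followed at 9.80, and chr20:62119532-62119890 stood at 9.79. At 9.78, each with 17 fragments, were chr11:67183023-67183404, chr17:79875615-79875977 and chr19:10217010-10217333. The weakest members, at 4.05, were chr5:179222607-179222837 and chr16:1537767-1538072, each with 9 fragments over an expected 1.47. The next weakest were a pair on chr8 at 4.15 and 4.23 and chr1:6302449-6302653 at 4.35 with 7 fragments.

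Some peaks lay close to each limit. The nearest Eso26-only peak beyond the fold limit, chr1:1290297-1291066, had a fold enrichment of 10.01. The limit of 12 left 10 windows with exactly 12 peaks inside, holding 88 members, and 14 windows with exactly 11 outside, holding 96 weak Eso26-only peaks. The member nearest to an OE33 peak was 3 bases away from it, and the smallest overlap among peaks left out was 4 bases. Of the 432 peaks in densely peaked windows that are not members, 227 were left out for their fold enrichment, 132 for overlap and 73 for both.

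The expected background under the members differed by chromosome. Its lowest value, 0.491 fragments, was shared by many peaks, as when a caller such as MACS2 uses 1 genome-wide rate as its floor. At this level were 304 of 859 members, or 35.4% (interval 32.3 to 38.6), and 21.99% (interval 20.7 to 23.4) of the weak peaks in other windows. Reweighted to the members' chromosomes, the latter share was 35.5%, inside the members' interval. On chr19, 66.4% of members and 57.1% of the other weak peaks were at the lowest level, on chr22 64.2% and 64.9%, on chr17 21.6% and 22.5%, and on chr16 23.1% and 38.0%. Without chr19, 132 of 600 members were, or 22%.

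Window by window, the background was split. In 41 of the 73 windows more peaks were at the lowest level than above it, in 26 none was, and 6 lay between. The 26 windows without such a peak held 309 members; chr9:139000001-140000000, chr17:79000001-80000000 and chr16:1000001-2000000 were among them, each with a median background of 0.84. The highest window median, 1.13, was on chr8. In chr19:1000001-2000000, 38 of 51 peaks were at the lowest level. Crowded windows occurred both where the expected background was lowest and where it was raised. The same count was not made for the other windows, and whether background bears on crowding was not tested.

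**Figure D4:**
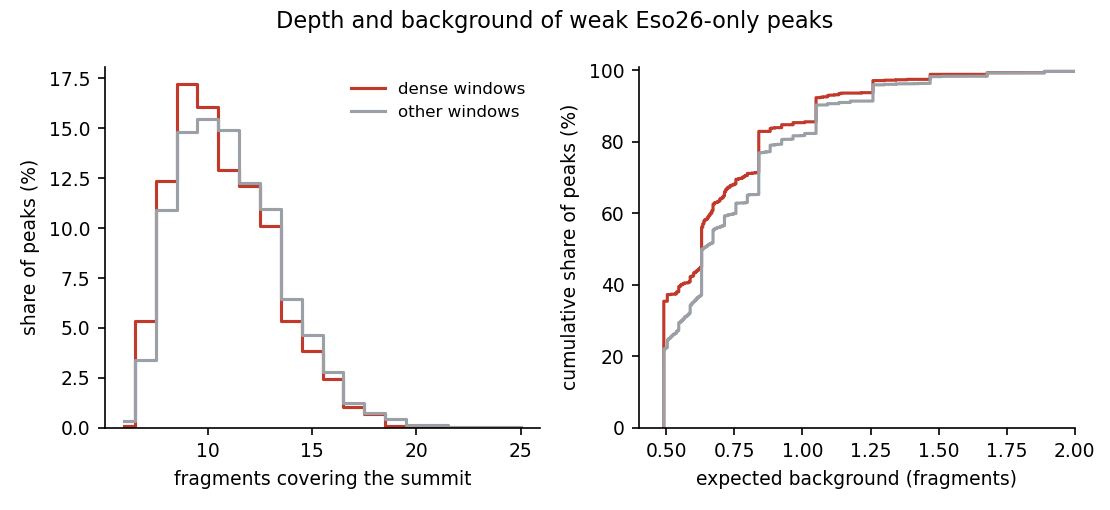
Left, share of peaks (percent) by fragments covering the summit, drawn up to 25; right, cumulative share of peaks (percent) against the expected background at the summit, drawn up to 2 fragments. Members (red, n = 859) and weak Eso26-only peaks in other windows (grey, n = 3665) have medians of 10 and 11 fragments, and 35.4% and 21.99% start at the lowest background of 0.491.

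Chromosomes with more expressed genes had more Eso26 peaks. Genes at 5 CPM or more in an Eso26 library were placed by chromosome name only (10355 of 10443 genes), since the annotation used is of another build than the peaks. Chr19 had 10.1 such genes per Mb, chr17 7.66, chr16 5.36 and chr22 4.83, the 4 highest, and chr13 was lowest with 1.67. Over 23 chromosomes, expressed genes per Mb and Eso26 peaks per Mb were related with a Pearson r of 0.94 and a Spearman rho of 0.92, and r was 0.83 without chr19 and chr17, the 2 farthest from the median. For members per Mb these were 0.88, 0.72 and 0.68, and for OE33 peaks per Mb 0.80, 0.82 and 0.76. For weak Eso26-only peaks in other windows per Mb they were 0.84, 0.87 and 0.82, so the relation was not particular to members. All points come from the same libraries, and these are descriptions.

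Per expressed gene, the chromosomes were less far apart, but chr19 and chr22 stayed high in Eso26. For each 100 expressed genes, chr22 had 106 Eso26 peaks, chr18 105 and chr19 92.3, while chr17 had 68.8 and chr1 55.6. For the same genes, chr19 had 55.9 OE33 peaks and chr7 162. Gene content and GC content of the 73 windows themselves were not tested, because no hg19 sequence or gene annotation was used here, and for the same reason no member sequence is shown and no member is assigned to a gene.

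**Figure D5:**
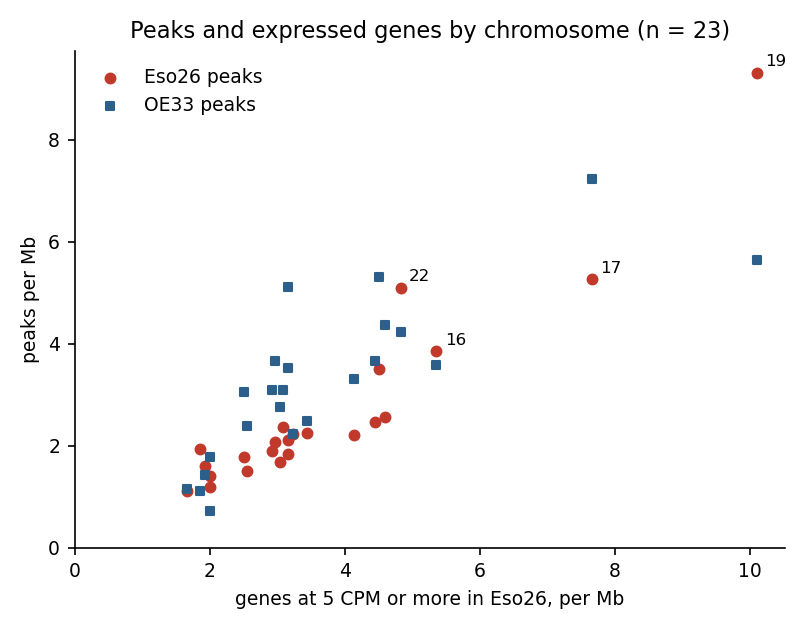
Each chromosome (n = 23) is drawn by its genes at 5 CPM or more in Eso26 per Mb (horizontal) and its peaks per Mb (vertical), for Eso26 (red circles) and OE33 (blue squares); labels name chromosomes at their Eso26 points. Chr19 is at 10.1 genes and 9.32 Eso26 peaks per Mb, above its 5.65 OE33 peaks per Mb.

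Genes on chr19, chr17, chr16 and chr22, the chromosomes with most members, were slightly higher at the median in the Eso26 library labelled siPPARG. PPARG itself had 259 counts in the Eso26 control and 201 in Eso26 siPPARG, a log2 fold of -0.24, and 2156 and 313 in the OE33 pair, so the check of the siPPARG label rests on a small difference in Eso26. PPARG's partner RXRA had 1408 and 1522 counts in Eso26 control and siPPARG, and RXRB 960 and 989. The epithelial factors had 5312 and 5726 (ELF3), 2517 and 2177 (KLF5), 1122 and 1055 (GATA6) and 2855 and 2348 counts (EHF). These values have 1 library each.

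On chr19, 390 of 597 kept genes had a log2 fold of siPPARG against control above 0, with a median of 0.070, while the median of all 10443 kept genes was -0.0073. Medians were 0.081 on chr16, 0.048 on chr17 and 0.062 on chr22. The next chromosomes by number of members went both ways. Their medians were 0.043 on chr11, -0.011 on chr1, 0.015 on chr9, -0.087 on chr4, -0.039 on chr8, -0.0059 on chr7 and 0.023 on chr20. Past 1.5-fold, 17 chr19 genes were higher (2.85%) and 3 lower (0.503%), where 1.25% of all kept genes were higher and 1.15% lower. These shifts are small, and the median chr19 gene differed from the median gene by 0.078 on the log2 scale.

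Between the lines the order was the other way for chr19. Chr19 genes had a median log2 ratio of the Eso26 control to the OE33 control of -0.55, with 82 of 679 past 2-fold higher in Eso26 and 203 past 2-fold lower, 12.1% and 29.9%. Of all 11205 genes kept in that comparison, 16.6% were past 2-fold higher and 21.1% past 2-fold lower, with a median of -0.012. Chr16 had a median of -0.54, chr17 of 0.0088 and chr22 of -0.0013. Chr19 thus carried more PPARG peaks in Eso26 (551 against 334) beside lower RNA from most of its kept genes (491 of 679). Both comparisons use the Eso26 control library, so their values are not independent.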

How the data were processed

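Peak lists and RNA counts were deposited for the whole series, and members and gene lists were chosen with earlier results of these data known. The submitters' processing notes name Trim Galore, STAR, Bowtie, Picard, MACS2 and hg19 without roles; peak names contain bwa, so the aligner is not settled. The sources used here do not give the control library, duplicate handling or pooling behind the peaks, nor the read counter. Each peak's fold enrichment (a ratio), −log10 p and −log10 q and a whole-number score are the authors' deposited values; the lowest −log10 q was 2.05 in Eso26. The deposited RNA values are raw counts per gene, per the file headers.

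The 75 Eso26 peaks on other sequences were left out. Overlaps were checked with bedtools 2.31.1. Fragments n and background b at each summit were solved from fold = (n + 1)/(b + 1) and p = the Poisson chance of more than n given b, as MACS2 commonly computes them, an assumption tested on the values. All 7010 Eso26 and 9651 of 9652 OE33 peaks had a whole n matching −log10 p within 0.0001; among members, the next-best n missed by at least 0.00011. Shares carry Wilson 95% intervals, and medians over windows order-statistic intervals. Reweighting averaged each chromosome's share over the chromosomes of the first group. Log2 folds are differences of TMM-scaled log2 CPM with a prior count of 2 (edgeR 4.0.16, R 4.3.3) for genes at 5 CPM or more in 1 of 2 libraries. Chromosome names came from the GRCh38.p14 RefSeq table by gene symbol. Windows and peaks named are the 10 windows with most members, the 10 highest and 5 lowest members by fold, and those nearest each limit; other windows were named after their values were seen. The planned results on GC content, gene starts and genes within windows were not run, and results by chromosome replaced them after the data were seen. Alternatives covered window size, borders and limits, overlap, stricter peaks, scaling (DESeq2 1.42.0), prior count and filter. Scripts were tested on simulated data.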

Additional observations from a re-analysis of the deposited data

How the results depend on the processing

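Of 42 alternatives over 7 results, 32 left the value within its counting interval (numbers of peaks within 1.5 times). A turned direction was looked for only in the results on chr19 genes, with 6 alternatives each, and 0 were found. The number of members ran from 600 without chr19 to 1170 with 500 kb windows, with 614 at 15 or more peaks and 1106 at 10 or more. With window borders moved by 500 kb, 831 peaks met the rule, and 616 of the 859 members (71.7%) were among them. The share of members near an end was 53.3% at 5 Mb, 83.1% at 20 Mb, 69.9% for windows of 15 or more peaks and 69.8% without chr19. The share of peaks in densely peaked windows that were shared with OE33 was 10.4% when at least 50% of the peak had to overlap and 19.98% with summits within 1 kb, beside 13.02% and 22.1% in the other windows, which were added after seeing the data. The share of members at the lowest background was 22% without chr19. The median log2 fold of chr19 genes in Eso26 was 0.050 with DESeq2 size factors and 0.12 with library totals only, and their ratio between the lines -0.46 with no filter beyond 1 count. Under both scalings the median of all genes moved with chr19 (-0.027 and 0.037 against -0.0073), and the difference of chr19 from it stayed at 0.077 and 0.078. With no filter beyond 1 count the median of all genes between the lines was 0.073 and the difference of chr19 from it -0.53. The cause of the higher share near ends at 15 or more peaks was not tested. Alternatives for GC content, gene starts and genes within windows were not run, since they need an hg19 genome and annotation. The alternatives for background and for genes by chromosome were chosen after seeing the data. No paired analysis was possible because each group has 1 sample. Depth limits the members: at about 10 fragments, a peak missing from the OE33 list does not show that PPARG is absent there.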

Other observations

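Median log2 ratios between the 2 control libraries also differed among other chromosomes. Chr13, which had 128 Eso26 peaks and 0 members, had the highest median log2 ratio of Eso26 to OE33 control, 1.43, with 140 of 204 genes past 2-fold higher in Eso26. Chr10 had the lowest, -0.76, with 176 of 442 genes past 2-fold lower, and 10 members. Chr7 had 811 OE33 peaks and 337 Eso26 peaks beside a median of -0.40. Outside chr1-22 and chrX, the sequence chr9_gl000199_random had 31 Eso26 and 93 OE33 peaks, none of which could be a member.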
